A study of Homo sapiens with 42 samples.

Results

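KLF transcription factors were followed in ATAC-seq libraries of 4 human lung adenocarcinoma cell lines, PC9, H1975, HCC827 and HCC2935, all with a mutated EGFR. ATAC-seq counts DNA fragments released by a transposase from open chromatin, so it measures the accessibility of promoters and other regulatory regions and not RNA or protein. The members were all regions that the authors' annotated tables assign by gene symbol to KLF2, KLF3, KLF4, KLF5, KLF6, KLF7, KLF9, KLF10, KLF12 or KLF13. They came to 221 of 242490 annotated regions, with 73 in H1975, 66 in PC9, 55 in HCC2935 and 27 in HCC827, and each is 502 bases wide. No region carried the symbol KLF13, so 9 of the 10 genes are described. An assignment to the nearest gene does not show that a region acts on that gene.

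DTPs (drug tolerant persisters) were cells kept in 500 nM osimertinib, an EGFR kinase inhibitor, for 24 days. In the group called combo, 21 days of 500 nM osimertinib were followed by 3 days of 150 nM AZD5153, which inhibits bromodomains of the BET class. Nothing in the labels tells if osimertinib stayed on for those last 3 days. Control cells grew without drug for 21 days and then had the vehicle DMSO for 3 days. A group given AZD5153 alone, 150 nM for 3 days after 21 drug-free days, exists for PC9 and H1975 only. Each of the 14 groups has 3 libraries, named biological triplicates by the submitters, and each line is 1 established culture, so p-values measure the spread between these libraries. Titles and design text name ATAC-seq, whereas the extraction text of the labels describes an H3K27ac immunoprecipitation, and accessibility is the reading used below.

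KLF proteins share C2H2 zinc fingers at the C-terminal end that bind GC-rich and CACCC sequences in promoters and enhancers, close to those bound by the SP factors. KLF2, KLF4, KLF5, KLF6 and KLF7 are known mainly as activators that recruit acetyltransferases, KLF3 and KLF12 as repressors that bind CtBP, and KLF9, KLF10 and KLF13 as factors that bind the SIN3A corepressor. In epithelia, KLF4 is known for differentiation and barrier genes and KLF5 for proliferation, and several members, KLF2, KLF4, KLF6 and KLF10 among them, are early response genes.

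The promoters on which most of the results turn are GC-rich. The windows below are the 250 bases before the start of KLF7, KLF5 and KLF2 in RefSeq on GRCh38.p14, 5′ to 3′ on the strand of the gene. They lie within or largely within the promoter regions described below, with an exception for KLF7. The KLF7 window is at the main start and does not overlap the internal KLF7 start region, which is the promoter region in HCC2935. Capitals mark GGGCGG, the GC box that SP and KLF factors can bind, and CACCC, both read on either strand (CCGCCC and GGGTG). KLF7 is chr2:207166857-207167106 on the minus strand, KLF5 is chr13:73058755-73059004 on the plus strand and KLF2 is chr19:16324576-16324825 on the plus strand.
KLF7: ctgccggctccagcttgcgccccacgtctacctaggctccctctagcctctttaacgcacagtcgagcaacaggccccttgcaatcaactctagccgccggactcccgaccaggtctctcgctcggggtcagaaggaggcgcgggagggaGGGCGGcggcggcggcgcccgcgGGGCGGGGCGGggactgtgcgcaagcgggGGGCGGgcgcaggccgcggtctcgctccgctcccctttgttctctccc
KLF5: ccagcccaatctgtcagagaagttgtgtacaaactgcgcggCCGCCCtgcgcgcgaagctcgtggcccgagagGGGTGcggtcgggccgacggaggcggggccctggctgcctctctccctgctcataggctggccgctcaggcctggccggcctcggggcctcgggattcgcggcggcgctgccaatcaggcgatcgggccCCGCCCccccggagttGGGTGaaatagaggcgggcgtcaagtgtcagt
KLF2: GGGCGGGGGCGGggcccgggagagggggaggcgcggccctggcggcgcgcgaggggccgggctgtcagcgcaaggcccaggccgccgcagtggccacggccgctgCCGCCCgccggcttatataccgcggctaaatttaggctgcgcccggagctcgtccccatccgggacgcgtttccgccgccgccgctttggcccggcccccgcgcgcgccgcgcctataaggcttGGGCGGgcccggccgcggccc
KLF5 holds 2 CACCC and 2 GC box matches, while KLF2 and KLF7 hold 4 GC box matches and no CACCC. Matches can overlap, as in the runs of capitals. Of 35116 such windows over all genes, 54.7% hold a CACCC and 42.6% a GC box, and 7.63% hold 4 or more GC boxes. A match is a description of the letters and not a bound site. The GC content of the windows is 80% for KLF2, 72% for KLF7 and 70.8% for KLF5.

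Across the series, library totals ranged from 3989287 to 5193390 counts in PC9, 6200672 to 10062505 in H1975, 3968690 to 8066287 in HCC2935 and 1724680 to 4242868 in HCC827. Libraries of one group differed by no more than counting noise in 7 of 12 pairs in PC9 and 4 of 12 in H1975 (variance ratios of 0.961 to 1.05 and 0.968 to 1.26). Each KLF count within PC9, H1975 or HCC2935 is therefore also given with the libraries of a group summed and counted as 1 sample. The spread used for that was the one fitted in HCC2935. Differences of the DTP change between lines were not fitted with summed libraries. HCC827 was far noisier, with ratios of 1.21 to 9.56. The 3 H1975 libraries given AZD5153 alone stand apart: the medians of 10 Mb stretches of the genome moved with an SD of 0.430 on the log2 scale, and the summed promoter level of 7 epithelial markers was 93.4 to 101 CPM (counts scaled to 1e6 per library) against 215 to 224 in control. All 7 epithelial markers had a promoter region in every line. Of the 4 alveolar markers, NKX2-1 and SFTA3 had one in every line, while NAPSA lacked one in PC9 and HCC827 and SFTPB in PC9 and HCC2935. Of the 4 blood markers, PTPRC and CD3E had none in any line, CD14 had one in PC9 and H1975 and CD79A in H1975. Endothelial markers with a region numbered 2 of 3 in PC9 and H1975, 1 in HCC2935 and 0 in HCC827, and fibroblast markers 2 of 4 in PC9, H1975 and HCC2935 and 1 in HCC827.

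Other sums moved with the groups. In HCC2935 the alveolar sum was 65.8 to 77.5 CPM in DTPs against 128 to 142 in control and the fibroblast sum 36.7 to 41.5 against 20.9 to 23.3, and regional medians there moved with an SD of 0.334 between DTP and control. The H1975 blood sum was 6.28 to 8.02 CPM in DTPs against 21.5 to 23.6 in control, and the PC9 epithelial sum 221 to 226 in combo against 155 to 167 in DTPs. H1975 cells given AZD5153 alone had an alveolar sum of 34.0 to 38.7 CPM against 89.3 to 96.4 in control. Their endothelial sum was 3.71 to 4.19 against 19.1 to 23.2. The part of all these sums in the KLF results was not tested.

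The KLF regions were distal intergenic more often than the annotated regions were. Distal intergenic regions made up 45.5% of the PC9, 38.4% of the H1975, 37.0% of the HCC827 and 41.8% of the HCC2935 members, while 18% to 20.3% of all annotated regions of a line were of that kind. Promoter regions made up 37.9% of the PC9, 45.2% of the H1975, 41.8% of the HCC2935 and 63.0% of the HCC827 members, against 51.5%, 46.7%, 44.6% and 53.3% of annotated regions. KLF6 had 51 regions over the 4 tables, KLF9 36, KLF2 27, KLF5 25, KLF10 25, KLF4 23, KLF7 17, KLF12 9 and KLF3 8. KLF12 had no promoter region in any line and no region at all in HCC827. Matching by overlap gave 106 places, of which 17 were listed in all 4 lines and 47 in only 1. All 221 regions passed the filter on low counts.

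**Figure D1:**
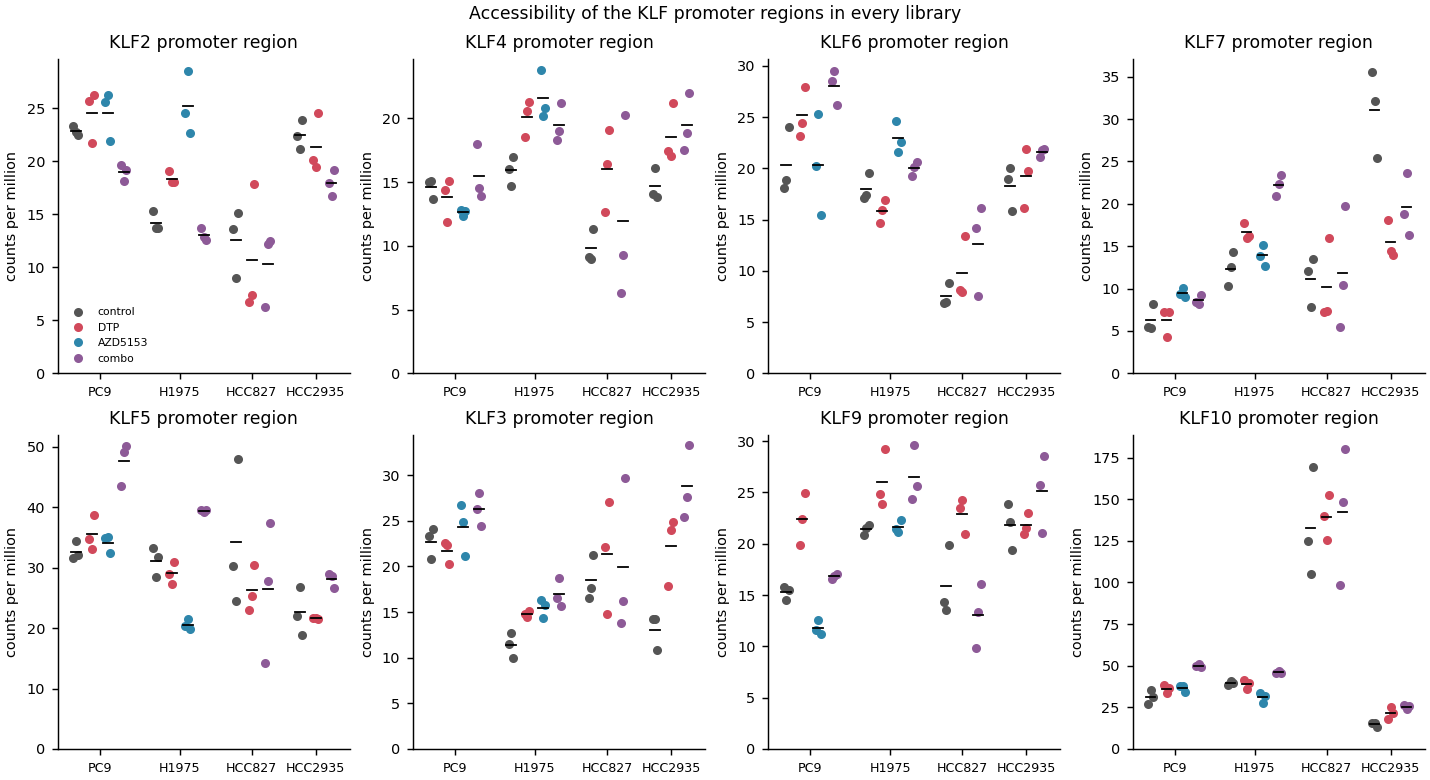
Accessibility in CPM of the promoter region of each KLF gene with one, by cell line and group; points are libraries and bars are means of 3. KLF10 reaches 98.4 to 180 in HCC827, and the KLF7 panel shows an internal start for HCC2935 and the main start for the other lines. The KLF10 panel shows a different start region for HCC827 and HCC2935 than for PC9 and H1975, and the KLF4 panel a different one for H1975 than for the other lines.

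Among the activators, the promoter region of KLF5, an epithelial proliferation factor, was high in every line. Its control libraries had 31.6, 34.3 and 32.1 CPM in PC9 (chr13:73058587-73059088), 33.2, 28.4 and 31.7 in H1975, 22.0, 26.8 and 18.9 in HCC2935 and 30.2, 24.6 and 47.9 in HCC827. It ranked above the other KLF promoters in PC9 control, where its libraries overlapped only those of KLF10, and it stood at or above the 88.1 percentile of promoters in each table. The lowest KLF promoter in PC9 was that of KLF7, at 5.51, 5.30 and 8.21 CPM. Levels are compared between lines as a description only, since each line's table was made separately.

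The most uneven level was that of KLF10, an early response gene of TGF-beta signalling whose product represses with SIN3A. In HCC827 control its promoter region 0.2 kb past the start held 125, 105 and 169 CPM. The highest KLF10 promoter value in a control library of another line was 41.0 CPM in H1975, and HCC2935 had 15.8, 15.9 and 13.4. Against the median promoter of its own table, KLF10 stood 10.7 times higher in HCC827, 5.52 times in H1975, 3.88 times in PC9 and 1.96 times in HCC2935. These H1975 and PC9 values are of another KLF10 start region (chr8:102655562-102656063 in H1975), the one with most counts there. Only HCC2935 is thus set beside HCC827 at the same region. A separate KLF10 start region was as uneven, at 95.6, 94.5 and 130 CPM in HCC827 control against 11.5, 13.1 and 13.6 in HCC2935. Promoters in the same 10 Mb of HCC827 had a median of 14.7 CPM against 12.5 in the whole table. The cause of the KLF10 difference between lines was not tested, and these levels carry no test.

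DTPs were compared with control cells to ask how accessibility differed after 24 days of osimertinib. In PC9, 24 of 66 KLF regions passed an adjusted p of 0.05 (edgeR quasi-likelihood test), 8 higher and 16 lower, and in H1975 51 of 73 did, 19 higher and 32 lower. In HCC2935, 17 of 55 passed, 7 higher and 10 lower. The share of all tested regions called was 31.8% in PC9 (15.5% higher and 16.3% lower), 51.8% in H1975 (24.8% and 27.0%) and 37.4% in HCC2935 (18.4% and 19.0%), beside 36.4%, 69.9% and 30.9% of the KLF regions. Annotated regions, to which the KLF regions belong, were called in 38.1%, 62.6% and 45.1%, so the KLF shares lay near or below those of PC9 and HCC2935 and somewhat above that of H1975. With the libraries summed, 3 were higher and 8 lower in PC9, 14 and 22 in H1975, and 5 and 9 in HCC2935, against 19.5%, 40.3% and 32.8% of all regions. A split of 27 higher and 23 lower resulted in H1975 with scaling by library size only, which moves the median of all its regions from 0.02 to 0.19, and one of 3 higher and 13 lower in HCC2935 once regional medians were removed.

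No KLF region was called in HCC827, where 1 of 27 had an unadjusted p under 0.05 and 0.0267% of all regions were called. With the replicate number as a block, 0 were called, 5 had an unadjusted p under 0.05, and the background was 3.59%. HCC827 counts were also simulated, with independent libraries at 1 common spread, and fitted without the block. Only 14% of 4-fold changes and 1% of 2-fold changes were recovered for this comparison, so changes of such sizes were seldom recovered there. Recovery by the fit with the block was not simulated.

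**Figure D2:**
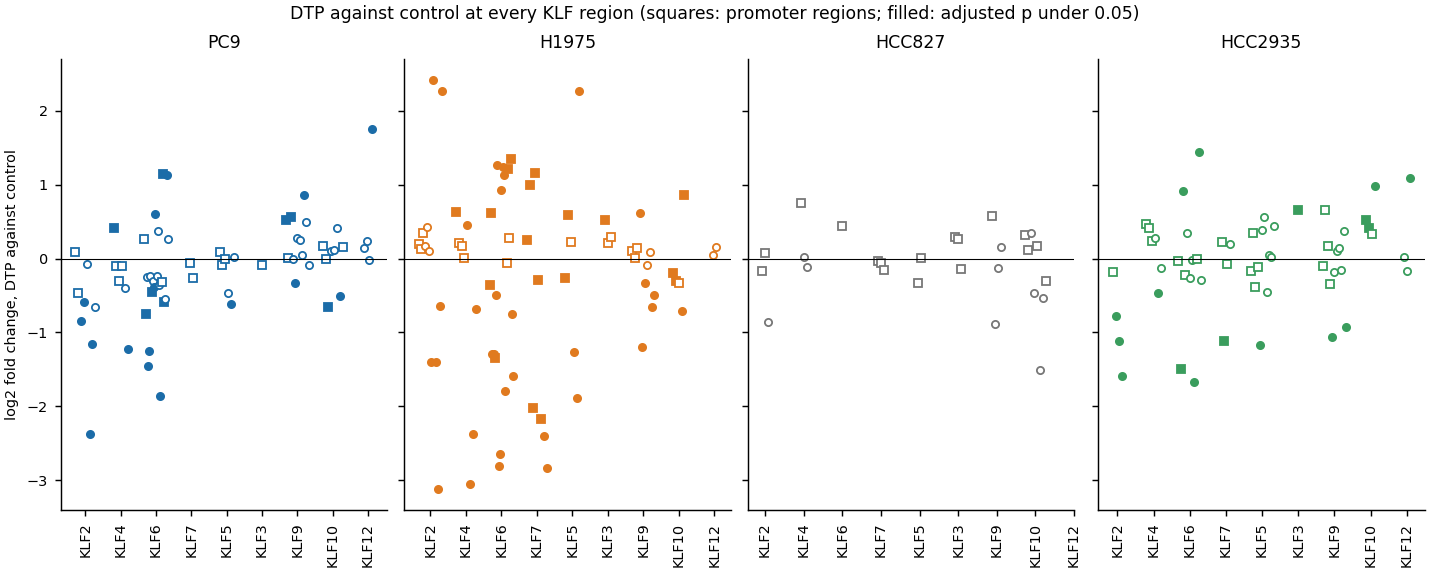
Log2 fold change of DTP against control for each KLF region, by gene and line; filled symbols passed an adjusted p of 0.05 and squares are promoter regions. Calls reach −3.13 in H1975, and no symbol is filled in HCC827.

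Most KLF regions called lower lay outside promoters. In H1975, 24 of 40 non-promoter KLF regions were lower and 9 higher, with a median log2 fold change of −0.65, while 8 of 33 promoter regions were lower and 10 higher, with a median of 0.20. All annotated non-promoter regions of H1975 had a median of −0.22, with 45.5% lower and 25.5% higher. The PC9 counts were 12 lower and 4 higher of 41 outside promoters, against 4 and 4 of 25 at promoters. HCC2935 had 8 lower and 4 higher of 32 outside promoters, against 2 and 3 of 23 at promoters. Annotated regions outside promoters were lower in 29.0% and higher in 18% in PC9, and in 26.9% and 25.5% in HCC2935, so the KLF shares lower there were near those of all such regions.

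KLF2, known for quiescence in endothelium and T cells, fell at several neighbouring regions while its promoter did not pass the test. The promoter region (chr19:16324425-16324926 in PC9) had 23.3, 22.8 and 22.5 CPM in PC9 control and 25.7, 21.7 and 26.3 in DTPs, 15.3, 13.7 and 13.7 against 19.1, 18 and 18 in H1975, and 22.4, 21.2 and 23.9 against 20.2, 19.4 and 24.5 in HCC2935. The groups overlapped in PC9 and HCC2935. Their log2 fold changes were 0.08, 0.20 and −0.18, with adjusted p-values of 0.605, 0.0967 and 0.311.

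The region 22.4 kb upstream of KLF2, which the annotation places in an intron (chr19:16301922-16302423 in PC9), had 18.3, 16.1 and 13.3 CPM in PC9 control and 3.89, 2.26 and 3.01 in DTPs. Every DTP library was below every control library, as the rule that named this region requires. Of all PC9 regions, 41.6% were separate in either direction. At a log2 fold change of −2.37 ± 0.20 (SE, adjusted p = 2.59e-27), the region had the largest fall of a non-promoter KLF region in PC9. It was also lower in H1975, at 3.48, 2.95 and 2.83 against 6.75, 8.07 and 6.73 CPM (−1.40 ± 0.18, adjusted p = 8.82e-12), and in HCC2935, at 4.39, 2.72 and 1.82 against 7.65, 4.90 and 5.29 CPM (−1.12 ± 0.29, adjusted p = 0.00216). The fall was smaller than in PC9 by 0.89 in H1975 (adjusted p = 0.0162) and by 1.21 in HCC2935 (adjusted p = 0.0128) in the test of the difference between lines.

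A second intronic region, 26.8 kb upstream of KLF2 (chr19:16297543-16298044 in H1975), fell most in H1975. It had 7.26, 8.18 and 7.76 CPM in control cells and 0.721, 1.16 and 1.05 in DTPs, a log2 fold change of −3.13 ± 0.23 (adjusted p = 6.88e-29). The change was −1.16 ± 0.29 in PC9, from 5.01, 4.12 and 5.48 to 2.34, 3.08 and 1.20 CPM (adjusted p = 0.00059), and −1.59 ± 0.27 in HCC2935, from 8.56, 6.53 and 9.07 to 2.93, 3.57 and 1.99 CPM (adjusted p = 7.38e-06). No library of the DTPs reached a control library in any of these lines, a separation that the rule for naming this region required in H1975. Of all regions, 41.6% were separate in PC9, 56.1% in H1975 and 47.1% in HCC2935. The test of the difference gave a fall 2.04 deeper in H1975 than in PC9 (adjusted p = 3.92e-05).

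Downstream of KLF2, an intergenic region 5.5 kb past the start fell as well, and it was the strongest KLF2 region in PC9. PC9 went from 40.6, 37.3 and 46.1 CPM to 28.6, 24.8 and 30.9, H1975 from 26.2, 28.9 and 30.0 to 11.8, 12.0 and 12.6, and HCC2935 from 27.9, 19.4 and 28.0 to 17.1, 18 and 11.9. The groups did not overlap in any of the lines, against 41.6% of all regions not overlapping in PC9, 56.1% in H1975 and 47.1% in HCC2935. Log2 fold changes were −0.58, −1.40 and −0.77. HCC827 had 20.5, 15.1 and 29.2 CPM in control and 12.6, 8.98 and 12.7 in DTPs, an uncalled difference of −0.86 ± 0.38 (adjusted p = 0.676).

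**Figure D3:**
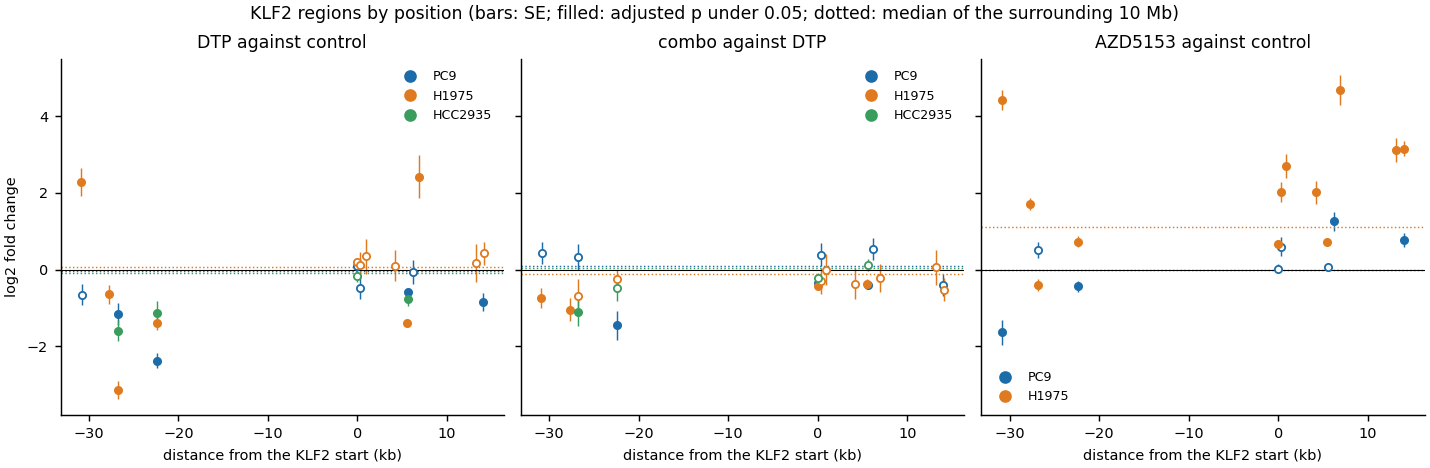
Log2 fold changes with their SE at the KLF2 regions, by distance from the KLF2 start in kb, for 3 comparisons; filled points passed an adjusted p of 0.05 and dotted lines are the medians of the surrounding 10 Mb. The regions 22.4 and 26.8 kb upstream fall in DTPs of 3 lines, that 30.9 kb upstream rises by 2.27 in H1975, and H1975 given AZD5153 alone has a regional median of 1.10 under its rises.

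KLF4, a barrier and differentiation factor, had a similar pattern at 1 distal region. The intergenic region 14.2 kb upstream (chr9:107504781-107505282 in PC9) had 15.3, 14.9 and 13.3 CPM in PC9 control against 5.06, 8.62 and 5.22 in DTPs, and 18.6, 14.5 and 16.9 against 2.64, 4.01 and 3.98 in H1975. These were falls of −1.23 ± 0.17 (adjusted p = 9.63e-11) and −2.38 ± 0.15 (adjusted p = 9.98e-39). In HCC2935 the values were 16.8, 18.2 and 16.4 against 12.7, 16.0 and 10.8, a fall of −0.47 ± 0.18 (adjusted p = 0.0316) that did not pass with the libraries summed (adjusted p = 0.164). The KLF4 promoter region had log2 fold changes of −0.10 in PC9, 0.17 in H1975 and 0.24 in HCC2935, none of them called. The H1975 value is of another start region (chr9:107489998-107490499), which only partly overlaps that of PC9 (chr9:107489742-107490243). A weaker KLF4 start region (chr9:107488261-107488762 in PC9), picked after its values were seen, was higher in PC9, from 7.02, 7.85 and 11.7 to 9.93, 14.8 and 12.0 CPM (0.41 ± 0.16, adjusted p = 0.0427, and 0.319 for summed libraries), where groups overlapped. It was also higher in H1975, from 6.49, 4.53 and 5.14 to 10.8, 7.70 and 9.53 CPM (0.63 ± 0.15, adjusted p = 0.000212, and 0.0448 for summed libraries), and an uncalled 0.47 ± 0.23 in HCC2935 (adjusted p = 0.103).

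KLF6, an early response gene of epithelia, moved in opposite directions at different regions. An intergenic region 90 kb downstream (chr10:3689742-3690243 in PC9) fell in 3 lines: from 5.51, 7.26 and 8.41 to 1.56, 2.05 and 2.41 CPM in PC9, from 3.95, 5.09 and 4.22 to 1.32, 2.11 and 0.838 in H1975, and from 5.65, 3.5 and 7.31 to 3.09, 2.00 and 0.332 in HCC2935. All DTP libraries were below all control libraries of their line, a separation that the rule for naming this region required in HCC2935. Of all regions, 41.6% were separate in PC9, 56.1% in H1975 and 47.1% in HCC2935. The log2 fold changes were −1.86, −1.80 and −1.67, each with an SE between 0.25 and 0.36, and they passed in all 3 lines with the libraries summed too.

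A region 20.5 kb upstream of KLF6 rose in PC9 and HCC2935 and fell in H1975. PC9 had 2.51, 2.75 and 3.72 CPM in control and 5.84, 6.98 and 7.63 in DTPs (1.13 ± 0.25, adjusted p = 6.89e-05), and HCC2935 1.64, 0.933 and 2.52 against 4.39, 6.15 and 4.14 (1.45 ± 0.35, adjusted p = 0.000985). H1975 had 3.82, 4.64 and 2.51 in control and 2.52, 3.06 and 1.78 in DTPs, where groups overlapped (−0.75 ± 0.23, adjusted p = 0.00385). The change was 1.97 lower in H1975 than in PC9 (adjusted p = 7.67e-07) and 2.13 higher in HCC2935 than in H1975 (adjusted p = 3.13e-05). At the KLF6 promoter region, changes were 0.27 in PC9 (adjusted p = 0.0533), −0.35 in H1975 (adjusted p = 0.00166) and −0.03 in HCC2935 (adjusted p = 0.889). The H1975 value did not pass with the libraries summed (adjusted p = 0.189) or with regional medians removed (−0.17, adjusted p = 0.187).

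**Figure D4:**
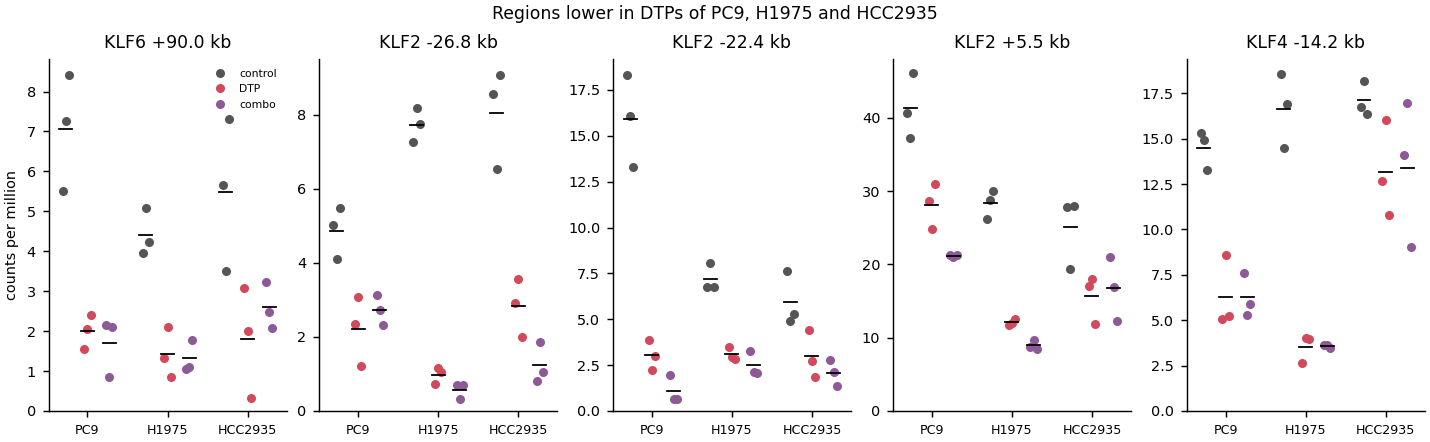
CPM by library at the 5 places called lower in DTPs of PC9, H1975 and HCC2935, for control, DTP and combo; bars are means of 3. At KLF2 26.8 kb upstream in H1975, DTP libraries hold 0.721 to 1.16 against 7.26 to 8.18 in control.

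Of the 35 places tested in all of PC9, H1975 and HCC2935, the 5 above fell in all 3 lines and none rose in all 3. Of all regions matched in these lines, 4.42% were lower in all 3 and 3.06% higher, and of the annotated ones 6.11% and 2.39%. The 5 places were KLF6 90 kb downstream, KLF2 26.8 and 22.4 kb upstream, KLF2 5.5 kb downstream and KLF4 14.2 kb upstream, and the last 2 were picked for description after their values were seen. In combo, none of the 5 was called higher than in DTPs in any of these lines, and KLF2 26.8 kb upstream fell further in HCC2935, to 0.810, 1.86 and 1.04 CPM (−1.11 ± 0.36, adjusted p = 0.042, and 0.0572 for summed libraries). In bulk libraries, fewer cells with an open region and less openness per cell cannot be told apart.

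KLF7, a factor known from neurons, has an internal start region 0.6 kb past a transcript start (chr2:207123325-207123826 in HCC2935) that fell in the 2 lines where it was listed. It had 35.5, 32.2 and 25.4 CPM in HCC2935 control and 18.1, 14.4 and 13.9 in DTPs, and 20.9, 22.3 and 20.8 against 6.73, 5.80 and 5.34 in H1975. The log2 fold changes were −1.12 ± 0.15 (adjusted p = 3.14e-08) and −2.02 ± 0.12 (adjusted p = 1.69e-39). The main KLF7 start (chr2:207166619-207167120 in H1975) went the other way in H1975, from 10.3, 12.5 and 14.3 to 17.8, 15.9 and 16.2 CPM, a rise of 0.25 ± 0.11 (adjusted p = 0.0494) that did not pass with the libraries summed (adjusted p = 0.463). All 8 KLF7 regions of H1975 were called, 3 higher and 5 lower, where 51.8% of all and 62.6% of annotated H1975 regions were called.

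Log2 fold changes of the KLF5 promoter in DTPs were 0.09 in PC9 (adjusted p = 0.491), −0.26 in H1975 (adjusted p = 0.00287, with 0.315 for summed libraries) and −0.17 in HCC2935 (adjusted p = 0.342). With regional medians removed the H1975 value was −0.51 (adjusted p = 1.91e-07). A second KLF5 start region, 0.4 kb past the start and picked after its values were seen, rose in H1975 from 6.49, 6.63 and 7.65 to 11.7, 10.9 and 12.8 CPM (0.59 ± 0.13, adjusted p = 6.72e-05, and 0.0498 for summed libraries), with uncalled values of −0.08 in PC9 and 0.35 in HCC2935. The KLF5 region 15.4 kb downstream was lower in H1975, from 9.55, 11.1 and 7.76 to 4.21, 4.96 and 4.08 CPM, and in HCC2935, from 14.9, 11.4 and 8.06 to 5.53, 5.86 and 5.30, and was chosen after its values were seen. These falls were −1.27 ± 0.16 and −1.17 ± 0.22, while in PC9 the difference of −0.47 ± 0.30 was not called (adjusted p = 0.226).

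Among the repressors, KLF12 gave the largest rise outside promoters in PC9 DTPs. The annotation calls the region intergenic and 52.7 kb upstream (chr13:74047804-74048305). RefSeq also lists a KLF12 start window further upstream, at chr13:74133930-74134179 on the minus strand. Both labels therefore hold for the start used by the annotation only. The region went from 1.75, 1.77 and 1.76 CPM in control to 6.81, 6.16 and 5.42 in DTPs and to 10.7, 12.9 and 13.7 in combo. All 3 groups were separate, which the rule that named this region required for both comparisons. Of all PC9 regions, 41.6% were separate for DTP against control and 35.6% for combo against DTP. Log2 fold changes were 1.76 ± 0.29 for DTP against control (adjusted p = 5.82e-08) and 1.02 ± 0.18 for combo against DTP (adjusted p = 8.68e-07). AZD5153 alone gave 2.60, 2.51 and 3.47 CPM, an uncalled 0.61 ± 0.35. The place was not listed in the other annotated tables. Among all counted regions it had a match in H1975 and HCC2935, where the DTP change did not differ from that in PC9 by the interaction test. The differences were −0.24 ± 2.00 (adjusted p = 0.948) and 1.04 ± 0.77 (adjusted p = 0.355).

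KLF3, a CtBP-binding repressor of erythroid and fat cells, rose at its promoter in HCC2935 DTPs. The values were 14.2, 14.2 and 10.8 CPM in control and 17.9, 24.0 and 24.9 in DTPs, a rise of 0.65 ± 0.16 (adjusted p = 0.000886). The surrounding 10 Mb had a median of 0.52 in the same comparison, and with regional medians removed the value was 0.17 (adjusted p = 0.463). In PC9 and H1975 the KLF3 promoter had uncalled values of −0.09 and 0.20.

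KLF9, a glucocorticoid- and thyroid hormone-responsive repressor, rose in PC9 DTPs. Its promoter region (chr9:70413808-70414309) had 15.8, 14.5 and 15.4 CPM in control and 19.9, 22.4 and 24.9 in DTPs, with no overlap, as for 41.6% of all PC9 regions. The log2 fold change was 0.53 ± 0.12 (adjusted p = 0.000204), but summed libraries gave an adjusted p of 0.122. The PC9 change exceeded that in H1975 by 0.50 (adjusted p = 0.00755) and that in HCC2935 by 0.68 (adjusted p = 0.00387). HCC827 had 14.3, 13.5 and 19.8 CPM in control against 23.5, 24.3 and 21.0, also separate but uncalled (0.58 ± 0.34, adjusted p = 0.939), where 13.7% of all regions were separate.

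The KLF10 promoter differed in direction between lines, with −0.20 ± 0.07 in H1975 (adjusted p = 0.0155) and 0.42 ± 0.15 in HCC2935 (adjusted p = 0.0222) at the region of each line with most counts. HCC2935 went from 15.8, 15.9 and 13.4 to 17.7, 25.0 and 21.9 CPM. The median of its surrounding 10 Mb moved by 0.45, and the KLF10 value without it was −0.00 (adjusted p = 0.988). Neither difference passed with the libraries summed, with adjusted p-values of 0.449 and 0.140.

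Over all matched KLF places, the DTP change differed between H1975 and PC9 at 30 of 73 (11 higher and 19 lower in H1975), between HCC2935 and PC9 at 15 of 65 (11 and 4) and between HCC2935 and H1975 at 21 of 61 (15 and 6), by the edgeR interaction test. The shares of all matched regions were 26.3% (12.2% higher and 14.1% lower), 21.4% (12.0% and 9.48%) and 28.8% (15.8% and 13.0%). With library size as the only scaling, H1975 against PC9 gave 13 and 14. HCC827 was not entered in this test, and no fit with the libraries summed was made for it.

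AZD5153 after osimertinib was compared with osimertinib alone. If osimertinib was taken off for the last 3 days of combo, its withdrawal and AZD5153 cannot be told apart in this comparison. In PC9, 12 KLF regions were higher and 9 lower in combo than in DTP, and in H1975 21 were higher and 4 lower. HCC2935 had 4 higher and 2 lower. Over all regions, 22.4% were called in PC9 (10.7% higher and 11.6% lower), 21.0% in H1975 (11.5% and 9.5%) and 8.39% in HCC2935 (2.37% and 6.03%), against 31.8%, 34.2% and 10.9% of the KLF regions. Annotated regions were called in 29.3%, 32.6% and 13.2%, close to the KLF shares. With the libraries summed, 1 was higher and 4 lower in PC9, 5 and 0 in H1975, and 2 and 1 in HCC2935, against 8.15%, 6.05% and 5.57% of all regions. Removal of regional medians gave 17 higher and 2 lower in H1975. In HCC827, 0 were called, 1 had an unadjusted p under 0.05, and 0.0% of all regions were called, or 0.0158% with the replicate block and again 0 KLF regions.

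Promoter regions made up most of the rises in PC9 and all of them in HCC2935. At KLF promoters, 7 were higher and 2 lower of 25 in PC9, 11 and 1 of 33 in H1975, and 4 and 0 of 23 in HCC2935. All annotated promoters were higher in 17.4%, 25.8% and 5.98% and lower in 10.2%, 7.96% and 4.73%. At KLF promoters with the libraries summed, 0 were called in PC9, 2 in H1975 and 2 in HCC2935.

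KLF5 was higher in combo in 3 lines. PC9 went from 34.7, 33.0 and 38.8 CPM in DTPs to 43.5, 49.1 and 50.2, H1975 from 29.0, 27.3 and 31.0 to 39.5, 39.2 and 39.5, and HCC2935 from 21.6, 21.7 and 21.5 to 29.0, 28.6 and 26.7. In each of the 3 lines every combo library was above every DTP library, where 35.6%, 33.9% and 26.7% of all regions were separate in either direction. The rises were 0.43 ± 0.08 (adjusted p = 8.64e-06 in PC9), 0.51 ± 0.07 in H1975 (adjusted p = 6.96e-09) and 0.40 ± 0.12 in HCC2935 (adjusted p = 0.0327). With the libraries summed none of them passed, at adjusted p-values of 0.233, 0.142 and 0.415. HCC827 values of 14.2, 27.8 and 37.5 CPM in combo straddled those of 23.0, 25.4 and 30.4 in DTPs. Another KLF5 start region, 1.0 kb past the start and picked after its values were seen, was 0.97 higher in H1975 and 1.11 higher in HCC2935. It passed with the libraries summed in both. In PC9 it was not called, since the promoter above was the only 1 of 6 KLF5 regions called there.

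**Figure D5:**
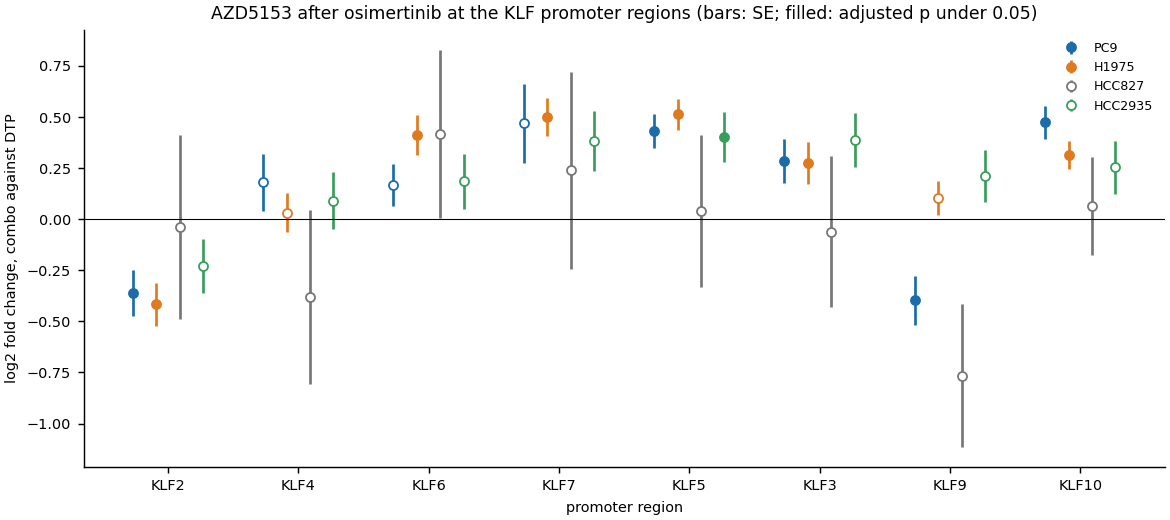
Log2 fold change of combo against DTP with its SE at the KLF promoter regions, by line; filled points passed an adjusted p of 0.05. KLF5 is filled in PC9, H1975 and HCC2935 at 0.40 to 0.51, and no HCC827 point is filled.

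KLF10, KLF7, KLF6 and KLF3 rose in combo as well, in fewer lines. The KLF10 promoter went from 38.4, 33.6 and 36.7 to 49.9, 51.0 and 49.4 CPM in PC9 (0.48 ± 0.08, adjusted p = 4.16e-07) and from 41.5, 36.1 and 39.7 to 45.8, 46.7 and 45.5 in H1975 (0.31 ± 0.07, adjusted p = 0.000182). In HCC2935 the difference of 0.25 ± 0.13 was not called (adjusted p = 0.235). KLF7 at its main start went from 17.8, 15.9 and 16.2 to 20.9, 22.3 and 23.5 CPM in H1975 (0.50 ± 0.09), with an uncalled 0.47 ± 0.19 in PC9 (adjusted p = 0.0658). KLF3 rose by 0.28 ± 0.11 in PC9 (adjusted p = 0.0423) and by 0.27 ± 0.10 in H1975 (adjusted p = 0.0414). With regional medians removed, neither KLF3 value was called (adjusted p = 0.118 in PC9 and 0.157 in H1975). KLF6 went from 14.7, 15.9 and 16.9 to 19.2, 20.1 and 20.6 CPM in H1975 (0.41 ± 0.10, adjusted p = 0.000531), where 9 of 19 KLF6 regions were higher and none lower. Of all H1975 regions 11.5% were higher and 9.5% lower, and of annotated ones 22.0% and 10.6%. None of these promoter rises passed with the libraries summed, at adjusted p-values of 0.173 to 0.539.

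KLF2 and KLF9 were the promoters that fell. The KLF2 promoter went from 25.7, 21.7 and 26.3 to 19.7, 18.1 and 19.2 CPM in PC9 (−0.36 ± 0.11, adjusted p = 0.0113) and from 19.1, 18 and 18 to 13.8, 12.8 and 12.6 in H1975 (−0.42 ± 0.10, adjusted p = 0.00114), with no overlap in either. Of all regions, 35.6% in PC9 and 33.9% in H1975 did not overlap. HCC2935 had −0.23 ± 0.13 (adjusted p = 0.309). KLF9 went from 19.9, 22.4 and 24.9 to 16.6, 16.9 and 17.1 CPM in PC9, a fall of −0.40 ± 0.12 (adjusted p = 0.0078), and had an uncalled 0.11 in H1975. Summed libraries gave adjusted p-values of 0.387 and 0.315 for KLF2 and 0.337 for KLF9.

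Outside promoters, the largest fall in PC9 combo was again 22.4 kb upstream of KLF2, from 3.89, 2.26 and 3.01 to 1.95, 0.632 and 0.633 CPM (−1.46 ± 0.39, adjusted p = 0.00208, and 0.0195 for summed libraries). In H1975 an intronic region 17.8 kb downstream of the KLF6 start rose from 2.28, 2.64 and 2.09 to 4.43, 5.53 and 5.27 CPM (1.19 ± 0.21, adjusted p = 1.6e-06), beside control values of 4.71, 5.31 and 5.25. The H1975 region 27.7 kb upstream of KLF2 fell from 2.40, 1.58 and 3.14 to 1.17, 1.22 and 0.894 CPM (−1.05 ± 0.30, adjusted p = 0.00622). A region 23.3 kb upstream of KLF4 fell in HCC2935, from 4.07, 6.43 and 6.30 to 1.30, 2.85 and 2.77 CPM (−1.23 ± 0.30, adjusted p = 0.00489). No KLF region outside promoters rose in HCC2935.

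AZD5153 alone was compared with control in PC9 and H1975. In PC9, 12 KLF regions were higher and 16 lower of 66, where 25.8% of all regions were called (11.3% higher and 14.5% lower), and in H1975 28 were higher and 33 lower of 73, where 58.1% were (26.7% and 31.4%). These were 42.4% and 83.6% of the KLF regions, beside 32.4% and 72.2% of the annotated regions. Summed libraries gave 9 and 5 in PC9 and 24 and 25 in H1975, against 14.1% and 48.3%. Scaling by library size alone turned the PC9 split to 18 higher and 13 lower, and removal of regional medians that of H1975 to 33 higher and 25 lower.

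In PC9 the changes were spread over the genes. The region 20.5 kb upstream of KLF6 rose from 2.51, 2.75 and 3.72 to 10.8, 11.8 and 6.74 CPM (1.60 ± 0.23, adjusted p = 2.4e-10). The intergenic region 6.4 kb downstream of KLF10 fell from 18.3, 14.5 and 21.7 to 4.80, 7.14 and 4.81 CPM (−1.77 ± 0.17, adjusted p = 9.9e-23). That KLF10 region also fell in PC9 combo against DTP, from 12.1, 12.7 and 14.5 to 5.46, 5.90 and 4.85 CPM (−1.26 ± 0.18), whereas in H1975 the combo difference was an uncalled 0.10. The KLF9 promoter fell to 11.6, 12.5 and 11.2 CPM in PC9 (−0.45 ± 0.14, adjusted p = 0.0109), and that of KLF7 rose to 9.40, 10.0 and 9.05 CPM (0.49 ± 0.19, adjusted p = 0.0429).

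With AZD5153 alone, 26.7% of all H1975 regions were higher and 31.4% lower, and 29.0% and 43.2% of annotated ones. Among them, 11 of 12 KLF2 regions were higher and 1 lower, and no KLF5 region was higher while 4 of 6 were lower. These genes lie in stretches that moved as a whole: the surrounding 10 Mb had a median of 1.10 at KLF2, −1.01 at KLF5 and KLF12, −1.0 at KLF10 and −0.73 at KLF7. The KLF2 promoter went from 15.3, 13.7 and 13.7 to 24.6, 28.5 and 22.7 CPM, a value of 0.66 ± 0.10, and of −0.33 (adjusted p = 0.00564) with regional medians removed. The KLF5 promoter went from 33.2, 28.4 and 31.7 to 20.3, 21.4 and 19.9 CPM, a value of −0.76 ± 0.09 that became 0.07 (adjusted p = 0.549). KLF10 had −0.50, and 0.33 without the regional medians, and KLF7 an uncalled −0.01, and 0.60 without them. The direction at these 4 promoters therefore depended on the regional scale.

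Other H1975 changes were larger than their surroundings. One region lies 41.3 kb upstream of the KLF12 start used by the annotation, which calls it intergenic. It held 39, 72 and 69 fragments in control and 2, 4 and 2 after AZD5153 alone, or 4.97, 7.96 and 7.87 against 0.238, 0.645 and 0.212 CPM. Its log2 fold change was −4.49 ± 0.32, and −3.69 with the regional median removed (adjusted p = 2.01e-19). The region 6.9 kb downstream of KLF2 held 2, 0 and 3 fragments in control, 10, 7 and 17 in DTPs and 52, 40 and 50 with AZD5153 alone, so its fitted rises of 2.42 in DTPs and 4.68 with AZD5153 rest on few control fragments. The KLF7 internal start fell from 20.9, 22.3 and 20.8 to 2.97, 1.94 and 2.23 CPM (−3.29 ± 0.15, and −2.69 with regional medians removed).

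An interaction term tested if the difference of combo from DTP was the same as that of AZD5153 alone from control. Any osimertinib withdrawal in combo cannot be told apart from AZD5153 here. The interaction was called at 19 of 66 KLF regions in PC9 (12 higher and 7 lower in DTPs) and at 56 of 73 in H1975 (35 and 21), where 13.8% (7.32% and 6.46%) and 42.5% (24.4% and 18.2%) of all regions were. These were 28.8% and 76.7% of the KLF regions, beside 18.9% and 59.8% of the annotated regions. Summed libraries gave 4 and 1 in PC9 and 27 and 16 in H1975, against 4.84% and 31.0%. PC9 had 8 higher and 10 lower with library size scaling only, and H1975 24 and 23 with regional medians removed.

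At the KLF5 promoter the interaction was positive in both lines, at 0.45 ± 0.12 in PC9 (adjusted p = 0.00448) and 1.27 ± 0.12 in H1975 (adjusted p = 2.89e-21). With regional medians removed the values were 0.44 (adjusted p = 0.00664) and 0.42 (adjusted p = 0.00555), and for summed libraries PC9 did not pass (adjusted p = 0.524). Outside promoters in PC9, a region 63.8 kb downstream of KLF5 gave 1.45 ± 0.26, having gone from 12.5, 10.4 and 12.9 to 5.40, 4.82 and 5.20 CPM with AZD5153 alone and from 7.79, 7.59 and 8.43 to 8.0, 7.80 and 10.8 in combo. The region in the KLF6 3′ UTR 3.9 kb past the start gave −1.90 ± 0.30, rising from 3.26, 4.51 and 6.84 to 12.4, 12.7 and 8.28 CPM with AZD5153 alone and falling from 7.01, 9.64 and 6.63 to 4.88, 5.06 and 2.95 in combo. Of the regions named, the H1975 region 30.9 kb upstream of KLF2, in an exon, gave −5.16 ± 0.40 (adjusted p = 1.01e-26, and −4.10 with regional medians removed), with 4, 2 and 7 fragments in control, 19, 35 and 23 in DTPs, 113, 65 and 119 with AZD5153 alone and 12, 13 and 19 in combo. In PC9 the same place fell with AZD5153 alone, from 4.76, 4.51 and 4.69 to 1.20, 1.35 and 2.12 CPM (−1.64 ± 0.32, adjusted p = 6.15e-06). The KLF12 region 41.3 kb upstream gave 4.56 ± 0.37 in H1975, since combo held 77, 82 and 83 fragments against 81, 72 and 88 in DTPs. In H1975 the KLF6 3′ UTR region rose in both settings, by 2.03 with AZD5153 alone and by 1.01 in combo.

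Promoters of 17 related genes (other KLF genes and SP1 to SP9) and of 15 partners and regulators (corepressors, acetyltransferases, ubiquitin ligases and the MEF2 factors that act on KLF2 and KLF4) were counted in the same fits. For DTP against control, 0 relatives were higher and 1 lower of 12 in PC9, 4 and 4 of 12 in H1975 and 2 and 1 of 13 in HCC2935. For combo against DTP, 4 were higher and 0 lower in PC9, 5 and 1 in H1975 and 1 and 0 in HCC2935, with SP4 higher in all 3. Partners numbered 3 higher and 2 lower of 15 in PC9 DTPs, 3 and 3 of 14 in H1975 and 3 and 0 of 14 in HCC2935, and in combo 2 and 3, 5 and 0, and 0 and 0. Of all annotated promoters, 15.1% were higher and 14.5% lower in PC9 DTPs, 26.0% and 27.0% in H1975 and 20.8% and 15.3% in HCC2935, with the combo shares as given above. SP6 was lower in DTPs of all 3 lines.

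Promoters outside the family with the pattern most like each member over the 14 groups, centred within each line, were TUBA1C for KLF5 (r = 0.958), TMEM198B for KLF10 (r = 0.972), WDR31 for KLF3 (r = 0.977), NRDC for KLF6 (r = 0.968), TRIM33 for KLF4 (r = 0.928), ZNF354B for KLF9 (r = 0.885), RCOR2 for KLF2 (r = 0.884) and GOT2 for KLF7 (r = 0.859). These are the highest of 9288 promoters and share libraries and depth with the members, so they are given as a description.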

How the data were processed

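ATAC-seq was measured in 42 libraries, 14 groups of 3, named by the labels. The authors deposited, for each line, raw counts of fragments per region, annotated with gene symbols. The submitters' processing notes name BWA 0.7.17, SAMtools 1.9, deepTools 3.4, MACS2 2.2.6, featureCounts 2.0.0, ChIPseeker 1.29.1 and hg38, without their roles. Regions are 502 bases wide, and printed starts may lie 1 base below the first base. Peak files hold deposited −log10 q scores and fold enrichment ratios and carry no result here.

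Counts were tested per line with edgeR 4.0.16 in R 4.3.3 (TMM scaling, default filter on low counts, quasi-likelihood test, Benjamini-Hochberg over all tested regions, prior count 2). Levels (CPM) are counts scaled to 1e6 per library total. Regions were named by rule: the promoter region of each gene with most counts, within 1 kb of a start; the largest called rise and fall outside promoters in each comparison, with groups that did not overlap and a mean count above the median; and up to 3 places in each direction called the same way in PC9, H1975 and HCC2935, matched by 50% reciprocal overlap. Other regions in the text were picked after their values were seen. Members and lists were chosen with earlier results of these data known. Regional medians were taken over 10 Mb stretches. Same-numbered libraries had r over 0.1 in every pair only in HCC827 (0.261 to 0.828 over 9 pairs), which was taken as paired. In HCC2935, DTP and combo libraries had 0.0958, 0.178 and 0.206, and pairs with control −0.0739 to 0.0145. Every line was also fitted with a replicate block. DESeq2 1.42.0, other scalings and filters, summed libraries and leaving out each library were alternatives. Scripts were tested on simulated data. Per-sample columns left unused numbered 0.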

Additional observations from a re-analysis of the deposited data

Results flagged for a closer look

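Combo against DTP differed from AZD5153 alone against control, by the edgeR interaction test, at promoters of 4 KLF genes. Any osimertinib withdrawal in combo cannot be told apart from AZD5153. The difference (combo against DTP minus AZD5153 alone against control, log2) was 0.45 in PC9 and 1.27 in H1975 at the KLF5 promoter. At the KLF10 promoter it was 0.34 and 0.81. In H1975 it was −1.07 at the KLF2 promoter and 0.51 at the main KLF7 start. With the libraries summed, only the H1975 values of KLF2, KLF5 and KLF10 passed among these 6. With regional medians removed, KLF2 was −0.01 (adjusted p = 0.974), KLF10 −0.03 (adjusted p = 0.864) and KLF7 −0.10 (adjusted p = 0.648) in H1975, while KLF5 was 0.42 (adjusted p = 0.00555). Outside promoters it was 1.45 at KLF5 63.8 kb downstream and −1.90 at KLF6 3.9 kb downstream in PC9, and 4.56 at KLF12 41.3 kb upstream and −5.16 at KLF2 30.9 kb upstream in H1975.

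The DTP change differed between H1975 and PC9, by the interaction test across lines, which was not run with the libraries summed. The H1975 value minus the PC9 value (log2) was −2.04 at KLF2 26.8 kb upstream, 0.89 at KLF2 22.4 kb upstream, −0.90 at KLF2 5.5 kb downstream, −1.23 at KLF4 14.2 kb upstream and −1.97 at KLF6 20.5 kb upstream. At promoters it was −0.71 for KLF6, −0.44 for KLF5, −0.45 for KLF10 and −0.50 for KLF9. With regional medians removed, the H1975 change at KLF6 was −0.17 and no longer called (edgeR adjusted p = 0.187). Those at KLF5 and KLF10 in H1975 and at KLF9 in PC9 stayed called. HCC2935 minus PC9 was 1.21 at KLF2 22.4 kb upstream, 0.72 at KLF4 14.2 kb upstream, 0.70 at the KLF3 promoter and −0.68 at the KLF9 promoter. The HCC2935 change at the KLF3 promoter was 0.17 and not called with regional medians removed (edgeR adjusted p = 0.463). HCC2935 minus H1975 was 2.13 at KLF6 20.5 kb upstream, 1.47 at KLF2 26.8 kb upstream, 0.55 at KLF2 5.5 kb downstream, 1.84 at KLF4 14.2 kb upstream and −0.45 at the KLF2 promoter.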

How the results depend on the processing

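Leaving out 1 library kept 115 of 120 counts of called KLF regions within 1.5 times, and the other alternatives kept 106 of 130. DESeq2 called 15 KLF regions for DTP against control in PC9, 11 for combo in PC9, 7 for the PC9 interaction, 13 for combo in H1975 and 2 for combo in HCC2935. A mean of at least 50 counts per library leaves fewer regions and gave 9 calls in PC9 DTPs, 12 in PC9 combo, 7 for AZD5153 alone and 4 for the interaction in PC9, 25, 10, 28 and 25 for the same comparisons in H1975, and 6 and 2 for DTPs and combo in HCC2935. Summed libraries gave 11, 5, 14 and 5 in PC9, 5 for combo in H1975 and 3 for combo in HCC2935, and without a filter the PC9 interaction gave 12 and HCC2935 combo 3. Splits of higher and lower calls became 6 and 3 in PC9 DTPs and 13 and 12 in H1975 DTPs with the 50-count mean, 13 and 8 for AZD5153 alone in PC9 without a filter, and, in annotated regions only, 10 and 11 for the PC9 interaction and 4 and 4 for HCC2935 combo. The causes were not tested.

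Without 1 library, HCC2935 gave 11 to 16 calls for DTPs (11 without control replicate 1) and 2 to 6 for combo (2 without DTP replicate 1 or combo replicate 1, 3 without DTP replicate 2 or combo replicate 3). With regional medians removed, 7 named promoter values called in at least 1 of both fits changed sign, and others that changed sign were called in neither. In H1975 with AZD5153 alone they were KLF5 at 0.073, KLF2 at −0.33, KLF7 at 0.60 and KLF10 at 0.33, in the H1975 interaction KLF7 at −0.10 and KLF10 at −0.031, and in HCC2935 DTPs KLF10 at −0.0039. Which of depth and spread limited the calls in HCC827 was not tested.

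With the replicate number as a block, the counts in the order DTP, combo, AZD5153 alone and interaction were 24, 21, 28 and 19 in PC9 and 50, 25, 61 and 56 in H1975, those for DTP and combo were 17 and 8 in HCC2935 and 0 and 0 in HCC827, and no count moved by over 1.5 times. Correlations of same-numbered libraries were −0.0098 to 0.0126 in PC9, −0.0623 to 0.0151 in H1975 and −0.0739 to 0.206 in HCC2935, so those numbers were not taken as pairs. The block with regional medians removed, an alternative chosen after seeing the data, called 1 KLF region lower in HCC827 DTPs and 0 in combo.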
